A study of Homo sapiens with 4 samples.

Results

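DNA replication and deoxynucleotide synthesis were examined through 47 genes, listed by symbol and by their known role, in RNA-seq counts of OVCAR5 cells. All 47 symbols were among the 56655 in the count tables, and all 47 passed the filter on low counts that left 16417 genes to be tested. OVCAR5 is a line of human ovarian cancer cells in long use, labelled as high grade serous and as derived from ascites. The cells carried a control hairpin (shCtrl, 2 libraries) or a hairpin against FOXK2, a forkhead transcription factor (shFOXK2, 2 libraries). Both arms had been stably transduced with lentiviral particles, and no single clone is described. The study's figure legends name the hairpin of the RNA-seq comparison as shFOXK2-2, which the labels shorten to shFOXK2. The series describes its libraries as biological duplicates and says no more about how the duplicates were separated, so p-values measure the spread between these libraries, which may be technical. Polyadenylated RNA was sequenced, and library totals lay between 14284005 and 21950873 counts. FOXK2 itself, the targeted gene, was counted 1796 and 1499 times under the control hairpin and 1086 and 1084 times under its own. In counts scaled to a common library total (CPM) this was 80.5 and 93.4 against 76.3 and 59.6 (log2 fold change -0.36, standard error (SE) 0.25, adjusted p = 0.257). The groups did not overlap and shFOXK2 was the lower, as for 36.2% of all tested genes, without passing the test. With smooth offsets for the A or GC content of transcripts, described with the base composition results, the value for FOXK2 was -0.02 (adjusted p = 0.916) or -0.06 (adjusted p = 0.787), so a lower FOXK2 transcript was not seen under either offset in these counts. By other methods the paper reports less FOXK2 in OVCAR5 with either of its hairpins, in mRNA by qRT-PCR and in protein by Western blot.

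Replication begins where the origin recognition complex (ORC) binds DNA and, with CDC6 and CDT1, loads the MCM2 to MCM7 helicase as an inactive ring. The kinase CDC7 with its activator DBF4 then helps CDC45 and the GINS complex join the ring, which turns it into an active helicase. Behind it, polymerase alpha with primase starts each strand, the clamp loader RFC places the sliding clamp PCNA, and polymerases delta and epsilon extend the DNA. RPA coats the exposed single strands, FEN1 and LIG1 finish the lagging strand, and ribonucleotide reductase, thymidylate synthase and thymidine kinase supply deoxynucleotides. Many of these genes are known to be transcribed as cells enter S phase, and many are known targets of the E2F transcription factors.

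Most of the genes were higher in shFOXK2. Of the 47, 30 rose past an adjusted p of 0.05 in the edgeR quasi-likelihood test, none fell, and 17 did not pass. No gene of the 47 was lower at an unadjusted p under 0.05 either, by edgeR or by DESeq2, so 0 were lower by each. Over all 16417 tested genes, 25.7% rose and 22.7% fell in the same test. The median log2 fold change of the 47 was 0.86, against 0.04 for all tested genes, and ran from -0.39 for RPA2 to 2.34 for DBF4. A positive value was found for 43 of the 47. In CPM, both shFOXK2 libraries lay above both shCtrl libraries for 40 of the 47 genes, where 39.2% of all tested genes did so. Both lay below for RPA1 and RPA2 alone among the 47, where 36.2% of all tested genes did so, and the groups overlapped for MCM2, MCM5, MCM6, PCNA and RPA3. Each of the 4 pairings of a shFOXK2 with a shCtrl library gave a member median between 0.73 and 1.00 on the log2 scale, with 40 to 45 genes higher in the shFOXK2 library. The medians between libraries of the same group were 0.20 in shCtrl and 0.15 in shFOXK2. In RNA from a whole culture, a larger share of cells in S phase and more of these transcripts per cell cannot be told apart.

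**Figure D1:**
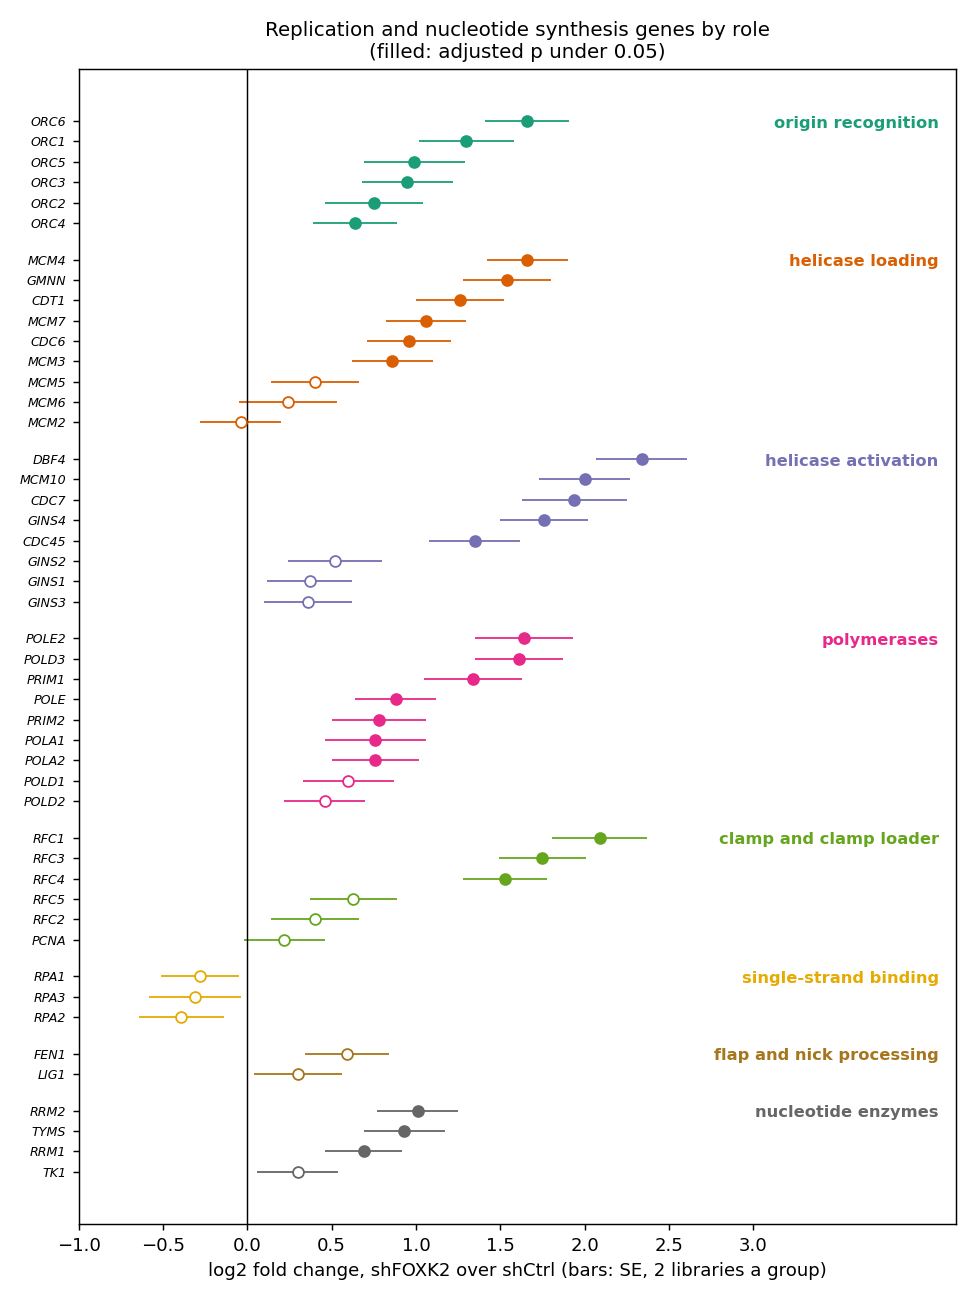
Log2 fold change of each of the 47 genes, shFOXK2 over shCtrl (horizontal axis), grouped by role (colour), with bars for the standard error and 2 libraries a group. Filled points passed an adjusted p of 0.05 and open points did not: all 6 ORC genes are filled and lie to the right of 0, and the 3 RPA genes are open and lie to the left of it.

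Calls were made in 6 of the 8 roles. Each count by role stands beside the 25.7% of all tested genes that rose in the same test. The test called 6 of 6 origin recognition genes, 6 of 9 helicase loading genes, 5 of 8 helicase activation genes, 7 of 9 polymerase genes, 3 of 6 clamp and clamp loader genes and 3 of 4 nucleotide enzymes, each higher in shFOXK2. Neither FEN1 nor LIG1 was called, nor was any of the 3 RPA genes. The median log2 fold change by role was highest for helicase activation, at 1.56, followed by 1.08 for the clamp and clamp loader, 0.97 for origin recognition, 0.96 for helicase loading, 0.81 for nucleotide enzymes, 0.78 for polymerases and 0.44 for FEN1 and LIG1. For RPA it was -0.31. The order of these medians was not tested, and it changed once the A content of the transcripts was taken into account. Of the 30 calls, 18 passed in each of the 4 fits that leave out a library. The other 12 were lost in at least 1 of those fits, and 20 genes were called when the second shFOXK2 library was left out.

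The sequence upstream of the transcription start was read for the genes of the list, called or not. Many are known E2F targets, so the share with an E2F-type motif also reflects the choice of genes. Of the 47 genes, 41 had a promoter in the RefSeq table (GRCh38.p14, 250 bases before to 50 after the start), and the others were MCM4, MCM5, GINS4, POLD3, RPA2 and RPA3. An E2F-type motif (TTCCCGC or TTGGCGC, read on both strands, with no overlap between the motifs) was present in 24 of the 41 windows (58.5%), compared with 9.33% of all 27305 promoters and 14.5% of the 10793 promoters of tested genes. Within the 250 bases before the start it was present in 18 of 41 (43.9%), compared with 7.95% of all promoters and 12.4% of those of tested genes. In the whole window it was found in 16 of 27 genes called higher (59.3%) and in 8 of 14 genes not called (57.1%). Within the 250 bases the counts were 13 of 27 (48.1%) and 5 of 14 (35.7%), the latter with MCM6, PCNA and RPA1 among them. The forkhead motif TGTTTAC was found in 0 of the 41 windows in 3.41% of all promoters and in 2.24% of those of tested genes. The letters CCAAT were found in 22 of 41 (53.7%), in 35.7% of all promoters and in 36.3% of those of tested genes. These are matches of letters and not measured binding. The 180 bases that end just before the start are shown for 3 called genes that act in origin binding, helicase loading and helicase activation, and for MCM6, which was not called but holds 2 matches; each is written 5′ to 3′ on the strand of the gene, with E2F-type matches in capitals. ORC1 is at chr1:52404424-52404603 on the minus strand, CDT1 at chr16:88803609-88803788 on the plus strand, CDC7 at chr1:91500671-91500850 on the plus strand and MCM6 at chr2:135876444-135876623 on the minus strand.
ORC1: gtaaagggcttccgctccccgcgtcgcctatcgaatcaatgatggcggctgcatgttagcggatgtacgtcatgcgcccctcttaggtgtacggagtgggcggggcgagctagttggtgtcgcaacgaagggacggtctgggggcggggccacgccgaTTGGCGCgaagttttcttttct
CDT1: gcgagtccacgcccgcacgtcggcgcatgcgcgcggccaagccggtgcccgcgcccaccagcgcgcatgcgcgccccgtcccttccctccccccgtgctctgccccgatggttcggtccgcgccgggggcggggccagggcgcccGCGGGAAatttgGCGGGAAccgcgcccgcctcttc
CDC7: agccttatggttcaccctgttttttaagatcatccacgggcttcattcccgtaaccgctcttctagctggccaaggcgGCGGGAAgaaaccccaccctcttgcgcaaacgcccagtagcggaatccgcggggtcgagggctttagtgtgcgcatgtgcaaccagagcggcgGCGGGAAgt
MCM6: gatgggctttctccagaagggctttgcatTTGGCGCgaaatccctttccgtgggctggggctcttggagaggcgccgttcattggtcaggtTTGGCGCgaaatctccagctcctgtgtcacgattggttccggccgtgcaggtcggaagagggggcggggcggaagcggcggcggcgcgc
The matches began 22 bases before the start in ORC1, 35 and 23 bases before it in CDT1, 102 and 9 bases before it in CDC7, and 151 and 89 bases before it in MCM6.

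All 6 genes of the origin recognition complex passed the test with positive values in shFOXK2, where 25.7% of all tested genes did so. The values of ORC6 and ORC1 were the largest. The calls of ORC2 to ORC5 depended on whether base composition was taken into account. ORC6 (chromosome 16, 46689643 to 46698394) encodes the smallest subunit. Its CPM was 20.9 and 21.9 in shCtrl and 63.8 and 71.4 in shFOXK2, which is 1.66 on the log2 scale (SE 0.25, adjusted p = 1.89e-04). ORC1 encodes the subunit that is degraded and made again in each cell cycle. It read 8.74 and 9.72 CPM in shCtrl and 22.7 in both shFOXK2 libraries (log2 fold change 1.30, SE 0.28, adjusted p = 0.00198). ORC2 to ORC5 form the stable core of the complex, and their log2 fold changes were smaller, from 0.64 for ORC4 to 0.99 for ORC5. ORC3 was 13.4 and 13.5 CPM in shCtrl and 25.1 and 26.9 in shFOXK2 (log2 fold change 0.95, SE 0.27, adjusted p = 0.0107). In ORC2 the libraries of a group differed by more, with 32.8 and 20.6 CPM in shCtrl and 50.9 and 39.3 in shFOXK2 (log2 fold change 0.75, SE 0.29, adjusted p = 0.0458). The groups did not overlap for any of the 6 genes, with shFOXK2 the higher, as for 39.2% of all tested genes. Per kb of transcript, ORC6 stood at 1.70 and 2.82 times ORC2 in shCtrl and at 3.33 and 4.82 times ORC2 in shFOXK2, a ratio chosen after its values were seen.

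The core of the complex was the least stable of these results. ORC4 (adjusted p = 0.0484) was not called in any of the 4 fits that leave out a library. ORC2 and ORC5 lost their calls without the second shCtrl library (log2 fold changes 0.46 and 0.88) and without the first shFOXK2 library (0.56 and 0.63), and ORC3 without the second shFOXK2 library (0.86, adjusted p = 0.0513). ORC1 and ORC6 kept theirs in all 4. With the A content offset ORC3 (-0.32) and ORC4 (-0.21) turned negative and were not called, while ORC2 (0.57) and ORC5 (0.94) were. With the GC content offset none of ORC2 (0.35), ORC3 (0.38), ORC4 (-0.20) and ORC5 (0.69) was called, and ORC1 and ORC6 were called with both offsets.

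In what follows, a value in brackets before its SE is the log2 fold change. Loading of the helicase was represented by CDC6, CDT1, the CDT1 inhibitor geminin (GMNN) and the 6 MCM genes. CDC6 and CDT1 bring the ring to ORC. CDT1 rose from 41.6 and 59.9 CPM in shCtrl to 125 and 117 in shFOXK2 (log2 fold change 1.26, SE 0.26, adjusted p = 0.00144). CDC6 rose from 47.8 and 54.8 to 91.0 and 108 CPM (0.96, SE 0.25, adjusted p = 0.00594). Geminin, which binds CDT1 and blocks a further round of loading, rose as well, from 18.0 and 17.9 to 48.9 and 55.7 CPM (1.54, SE 0.26, adjusted p = 3.51e-04). Loader and inhibitor thus rose together, and per kb the ratio of CDT1 to GMNN overlapped between the groups, at 1.10 and 1.58 in shCtrl and 1.21 and 0.999 in shFOXK2. With the A content offset CDT1 (1.64) rose more than GMNN (0.96), and with the GC content offset the values were 1.44 and 1.53. Without the second shFOXK2 library CDC6 missed the threshold (0.79, adjusted p = 0.0599).

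Members of the MCM ring, whose proteins assemble in equal numbers, differed in what their transcripts did. MCM4 (chromosome 8, 47960185 to 47978160) was 107 and 137 CPM in shCtrl and 374 and 397 in shFOXK2 (1.66, SE 0.24, adjusted p = 1.19e-04). MCM7 rose from 145 and 198 to 339 and 375 CPM (1.06, SE 0.24, adjusted p = 0.00290), and MCM3 from 91.1 and 118 to 170 and 208 CPM (0.86, SE 0.24, adjusted p = 0.0106). For these 3 genes the groups did not overlap, with shFOXK2 the higher, as for 39.2% of all tested genes. MCM2 lay at 117 and 162 CPM in shCtrl and at 129 and 143 in shFOXK2, inside the shCtrl range (-0.04, SE 0.24, adjusted p = 0.919). MCM5 was 85.1 and 124 against 122 and 154 CPM (0.40, SE 0.26, adjusted p = 0.216), and its groups overlapped. MCM6 showed the widest spread within shFOXK2, at 64.8 and 121 CPM around shCtrl values of 80.8 and 76.5 (0.24, SE 0.29, adjusted p = 0.520), so the lower shFOXK2 library lay under both controls and the higher above both. Its log2 fold change was -0.32 when the second shFOXK2 library was left out. MCM3 lost its call without the first shCtrl library (0.64, adjusted p = 0.0731) or without the second shFOXK2 library (0.67, adjusted p = 0.0883).

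Ratios within the ring differed accordingly between the groups. Per kb of transcript, MCM4 stood at 0.776 and 0.715 times MCM2 in shCtrl and at 2.45 and 2.34 times MCM2 in shFOXK2. MCM7 to MCM2 was 1.73 and 1.70 in shCtrl and 3.66 and 3.64 in shFOXK2. The highest of the 6 genes exceeded the lowest by 2.74- and 3.94-fold in shCtrl and by 7.96- and 4.73-fold in shFOXK2. Replicates were close for the first 2 ratios and not for the third, and all 3 were picked after the values were seen. MCM7 hosts microRNA genes, of which MIR93 is annotated over one of its exons, and reads there cannot be separated in a table by gene.

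**Figure D2:**
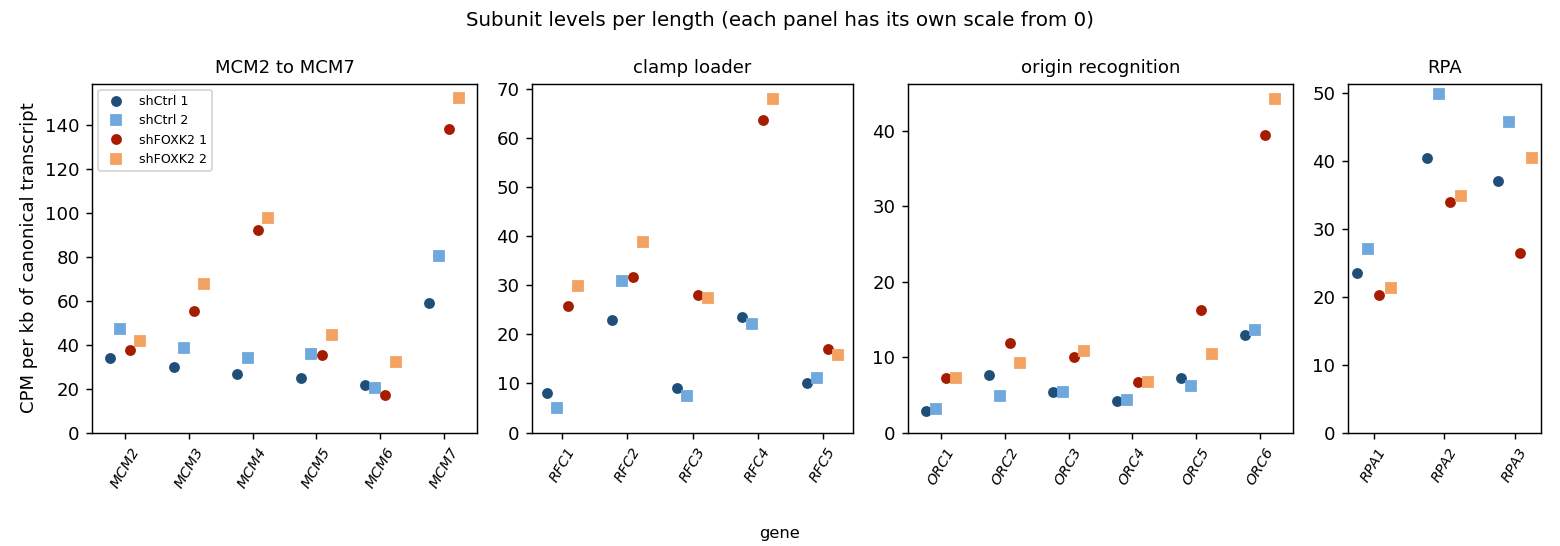
CPM per kb of the canonical transcript (vertical axis, from 0 in each panel on its own scale) of the MCM, clamp loader, ORC and RPA genes (horizontal axis), with 1 point for each library. The shFOXK2 points of MCM4, MCM7, RFC1, RFC3, RFC4 and ORC6 stand clear above the shCtrl points, while those of MCM2 and RPA do not.

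Among genes of helicase activation DBF4, MCM10 and CDC7 had the largest values. DBF4 (chromosome 7, 87876216 to 87909553, plus strand) encodes the subunit that switches CDC7 on. It had 10.7 and 9.22 CPM in shCtrl and 49.3 and 51.5 in shFOXK2 (2.34, SE 0.27, adjusted p = 2.64e-05). CDC7 (chromosome 1, 91500851 to 91525764) was 10.1 and 6.42 CPM in shCtrl and 29.8 and 34.0 in shFOXK2 (1.94, SE 0.31, adjusted p = 2.35e-04). Per kb the ratio of DBF4 to CDC7 was 0.930 and 1.26 in shCtrl and 1.45 and 1.33 in shFOXK2. MCM10 (chromosome 10, 13161558 to 13211110), which acts as the ring becomes active, had 10.8 and 10.9 CPM in shCtrl and 43.9 and 43.0 in shFOXK2 (2.00, SE 0.27, adjusted p = 6.83e-05). CDC45, a partner of the ring in the active helicase, rose from 15.4 and 19.0 to 41.9 and 45.9 CPM (1.35, SE 0.27, adjusted p = 0.00104). In each of these 4 genes the lower shFOXK2 library exceeded the higher shCtrl library, as in 39.2% of all tested genes. Each kept its call whichever library was left out. With the A content offset the order changed, to 1.70 for CDC45, 1.53 for MCM10, 1.31 for CDC7 and 0.72 for DBF4, all still called.

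Among the 4 GINS genes, whose proteins form a complex with 1 copy of each, all had positive values. GINS4 alone was called without an offset, where 25.7% of all tested genes were called higher. GINS4 was 20.1 and 26.7 CPM in shCtrl and 83.7 and 74.7 in shFOXK2 (1.76, SE 0.26, adjusted p = 1.62e-04). GINS1 had 35.1 and 44.3 against 51.9 and 50.8 CPM (0.37, SE 0.25, adjusted p = 0.242). GINS2 had 29.6 and 42.3 against 43.7 and 59.0 CPM (0.52, SE 0.28, adjusted p = 0.141), and GINS3 had 21.2 and 25.4 against 29.1 and 30.6 CPM (0.36, SE 0.26, adjusted p = 0.277). The groups did not overlap for these 3 genes either, with shFOXK2 the higher, as for 39.2% of all tested genes. With an offset for A content all 4 GINS genes passed the test, where 28.2% of all tested genes were called higher. Their values were then 0.65 to 0.84 for GINS1 to GINS3 and 1.94 for GINS4. With the GC content offset GINS1 (0.12, adjusted p = 0.704) was not called, while GINS2 (0.77), GINS3 (0.56) and GINS4 (1.97) were. GINS4 thus kept the largest value under both offsets but was no longer the only gene called.

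The replicative polymerases rose in most of their subunits. Polymerase alpha with primase makes the primer, and its 4 genes all passed the test, where 25.7% of all tested genes were called higher. PRIM1, the catalytic primase subunit, was 8.25 and 8.78 CPM in shCtrl and 19.9 and 23.1 in shFOXK2 (1.34, SE 0.29, adjusted p = 0.00185). Its partner PRIM2 had 11.4 and 10.2 against 19.8 and 17.5 CPM (0.78, SE 0.28, adjusted p = 0.0350). POLA1, the catalytic subunit of polymerase alpha, read 18.6 and 11.8 CPM in shCtrl and 23.1 and 28.6 in shFOXK2 (0.76, SE 0.30, adjusted p = 0.0499), and POLA2 rose by the same 0.76 (SE 0.26, adjusted p = 0.0267). These are small margins: leaving out a library ended the call of PRIM2 in all 4 cases, of POLA2 in 3 (without the first shCtrl library or either shFOXK2 library) and of POLA1 in 2 (without the second library of either group).

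In polymerases delta and epsilon an accessory subunit of each had the largest value, although for epsilon this did not hold under the GC content offset. POLE2, an accessory subunit of the leading-strand polymerase, was 6.99 and 7.41 CPM in shCtrl and 19.8 and 25.0 in shFOXK2 (1.64, SE 0.29, adjusted p = 5.63e-04). The catalytic gene POLE was 55.7 and 68.6 against 107 and 122 CPM (0.88, SE 0.24, adjusted p = 0.00916), and missed the threshold without the first shCtrl library (0.70, adjusted p = 0.0536) or the second shFOXK2 library (0.74, adjusted p = 0.0704). POLD3, which ties polymerase delta to PCNA, had 20.7 and 18.6 CPM in shCtrl and 56.0 and 64.0 in shFOXK2 (1.61, SE 0.26, adjusted p = 2.58e-04). The catalytic gene POLD1 had 40.2 and 50.5 against 80.8 and 56.7 CPM (0.60, SE 0.27, adjusted p = 0.0797), with a wide gap between the shFOXK2 libraries. POLD2 had 193 and 256 against 331 and 286 CPM (0.46, SE 0.24, adjusted p = 0.130). With the A content offset POLE2 and POLE were close, at 1.29 and 1.25, and with the GC content offset POLE2 (1.13) lay below POLE (1.20). The difference between subunits was itself not tested.

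In the clamp loader 3 of 5 genes were called without an offset and all 5 with the A content offset. Of all tested genes 25.7% and 28.2% were called higher in these fits. RFC1 (chromosome 4, 39287456 to 39366375, minus strand), the large subunit that sets this loader apart from its relatives, had 39.5 and 24.2 CPM in shCtrl and 126 and 146 in shFOXK2 (2.09, SE 0.28, adjusted p = 7.91e-05). RFC3 was 20.8 and 17.1 against 64.7 and 63.1 CPM (1.75, SE 0.26, adjusted p = 1.48e-04), and RFC4 was 32.1 and 30.0 against 86.8 and 92.6 CPM (1.53, SE 0.25, adjusted p = 2.70e-04). RFC2 had 38.6 and 51.9 CPM in shCtrl and 53.5 and 65.5 in shFOXK2 (0.40, SE 0.26, adjusted p = 0.230), and RFC5 had 21.2 and 23.6 against 36.1 and 33.2 CPM (0.63, SE 0.26, adjusted p = 0.0580). No gene of the loader overlapped between groups, and shFOXK2 was the higher, as for 39.2% of all tested genes. RFC1 to RFC2 per kb was 0.354 and 0.162 in shCtrl and 0.812 and 0.770 in shFOXK2, and RFC4 to RFC2 was 1.03 and 0.714 in shCtrl and 2.00 and 1.75 in shFOXK2, both ratios chosen after the values were seen. With the A content offset the log2 fold changes of RFC1 (0.80), RFC2 (0.70) and RFC5 (0.65) were close to each other, and those of RFC3 and RFC4 were 1.58 and 1.04. With the GC content offset RFC1 (1.87) stayed above RFC2 (0.76) and RFC5 (0.67). PCNA, the clamp that the loader places, was 135 and 133 CPM in shCtrl and 131 and 181 in shFOXK2 (0.22, SE 0.24, adjusted p = 0.473). One shFOXK2 library lay below both controls and the other above, and the value was -0.07 without the second shFOXK2 library.

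The RPA genes were the only role with negative values throughout. RPA1, the large DNA-binding subunit, was 114 and 131 CPM in shCtrl and 98.6 and 103 in shFOXK2 (-0.28, SE 0.23, adjusted p = 0.345). RPA2 was 64.1 and 79.1 against 53.8 and 55.3 CPM (-0.39, SE 0.25, adjusted p = 0.207), and RPA3 was 75.0 and 92.4 against 53.4 and 81.8 CPM (-0.31, SE 0.27, adjusted p = 0.370). None passed the test, and with the offset for A content the log2 fold change of RPA1 was 0.05. Summed per kb, MCM2 to MCM7 stood at 1.93 and 2.09 times RPA1 to RPA3 in shCtrl and at 4.65 and 4.51 times in shFOXK2, a ratio also chosen after the values were seen. FEN1, the flap nuclease, had 91.6 and 125 against 141 and 183 CPM (0.59, SE 0.25, adjusted p = 0.0713). LIG1, the ligase that seals Okazaki fragments, had 31.3 and 36.0 against 36.9 and 45.7 CPM (0.30, SE 0.26, adjusted p = 0.366).

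Nucleotide enzymes rose by moderate amounts. RRM2, the subunit of ribonucleotide reductase that carries its radical and is limited to S phase, was 69.3 and 82.5 CPM in shCtrl and 141 and 165 in shFOXK2 (1.01, SE 0.24, adjusted p = 0.00354). RRM1, the large catalytic subunit, had 112 and 102 against 157 and 188 CPM (0.69, SE 0.23, adjusted p = 0.0260). TYMS, thymidylate synthase, had 61.8 and 72.9 against 117 and 140 CPM (0.93, SE 0.24, adjusted p = 0.00625). TK1, thymidine kinase, had 124 and 175 against 187 and 181 CPM (0.30, SE 0.24, adjusted p = 0.328), so its shFOXK2 values lay just above the higher control. The groups did not overlap for any of the 4, with shFOXK2 the higher, as for 39.2% of all tested genes. Per kb, RRM2 to RRM1 was 0.598 and 0.778 in shCtrl and 0.866 and 0.849 in shFOXK2. Leaving out the second shFOXK2 library ended the calls of RRM1 (0.52, adjusted p = 0.201) and TYMS (0.76, adjusted p = 0.0581), and RRM1 also missed the threshold without the second shCtrl library (0.63, adjusted p = 0.0798).

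**Figure D3:**
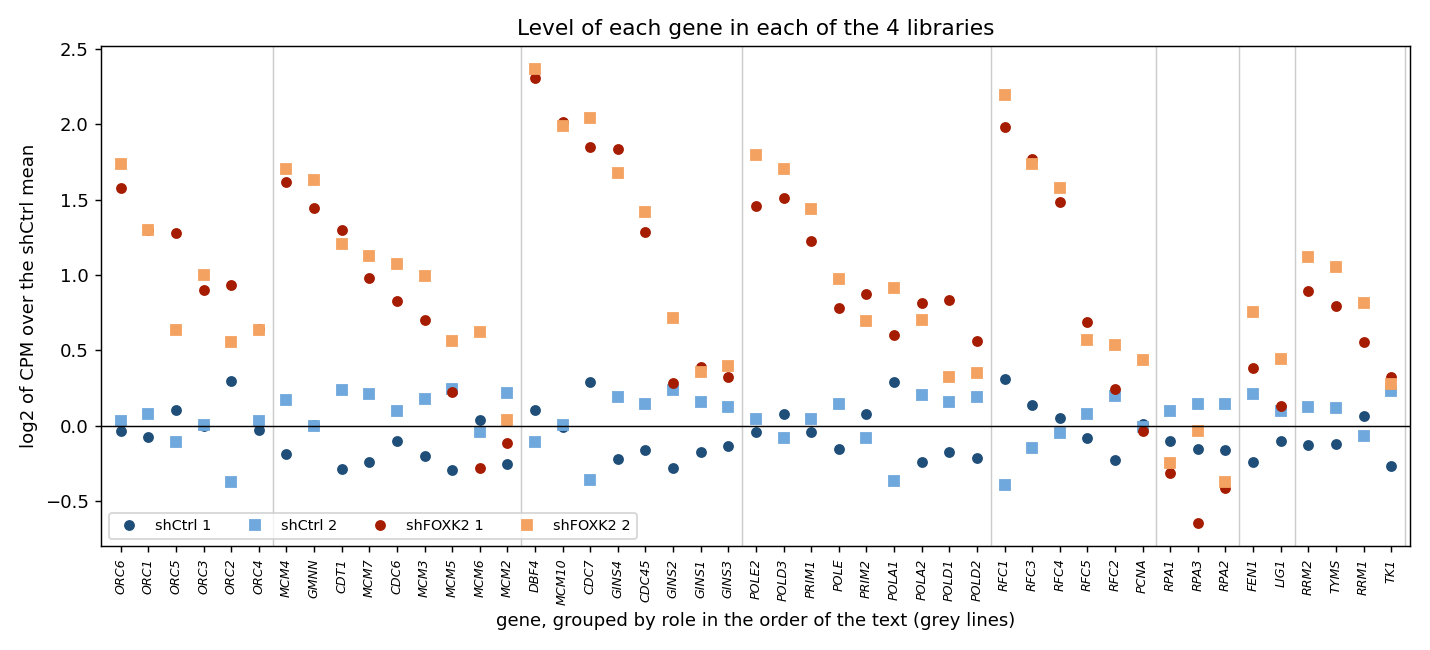
CPM of each of the 47 genes (horizontal axis, in role order) in each library, as log2 over the shCtrl mean (vertical axis), with circles for the first and squares for the second library of a group. Both shFOXK2 libraries lie above both shCtrl libraries for 40 genes, and RPA1 and RPA2 are the genes with both below.

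Base composition moved with these values. Across 13112 protein-coding tested genes matched to a transcript, the log2 fold change correlated with the A content of the canonical transcript (Pearson 0.31, Spearman 0.34), and across the 47 genes the correlation was 0.47 and 0.50 (n = 47). These are correlations across genes measured in the same 4 libraries. DBF4, with 34.4% A, and RFC1, with 33.4%, were among the genes richest in A, while MCM2 held 21.8% and TK1 18.7%. In transcripts of at least 32% A, the median over all genes was 1.25 and 64.8% of them were called higher, and 3 of the 4 members there lay above that median. In transcripts under 22% A the median over all genes was -0.33, with 13.1% called higher, and all 5 members lay above it. In the 5 ranges between, 36 of 38 members lay above the median of their range.

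An offset that removes the trend on A content in each library left most of the group result and changed its parts. With it, 36 of the 47 genes were called higher and none lower, where 28.2% of all tested genes were called higher and 23.0% lower. The member median was 0.84, and that of all tested genes 0.07. Of the 30 earlier calls 25 were kept, 11 were gained and 5 were lost, namely ORC3 (-0.32, adjusted p = 0.293), ORC4 (-0.21, adjusted p = 0.479), POLA1 (0.29, adjusted p = 0.250), PRIM1 (0.09, adjusted p = 0.787) and RRM1 (0.39, adjusted p = 0.103). DBF4 dropped to 0.72 (adjusted p = 0.0153) and RFC1 to 0.80 (adjusted p = 0.00455), while MCM4 (1.83), MCM7 (1.42), CDT1 (1.64), CDC45 (1.70) and GINS4 (1.94) had larger values than before. The genes gained were MCM5, GINS1, GINS2, GINS3, POLD1, POLD2, RFC2, RFC5, FEN1, LIG1 and TK1. By role, helicase loading now had the highest median, 1.19, followed by helicase activation at 1.07, nucleotide enzymes at 0.96, polymerases at 0.92, FEN1 and LIG1 at 0.79, origin recognition at 0.76, the clamp and clamp loader at 0.75 and RPA at -0.17. Of the 18 genes called whichever library was left out, 17 were called with this offset as well, PRIM1 being the exception. The GC content offset also kept 25 of the 30 calls and lost 5, but those lost were ORC2, ORC3, ORC4, ORC5 and PRIM2. With it PRIM1 (0.81), POLA1 (0.70) and RRM1 (0.56) were called, and DBF4 and RFC1 stood at 1.57 and 1.87. The losses and drops thus differed between the offsets. Whether A content acts through the libraries or the cells was not tested.

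**Figure D4:**
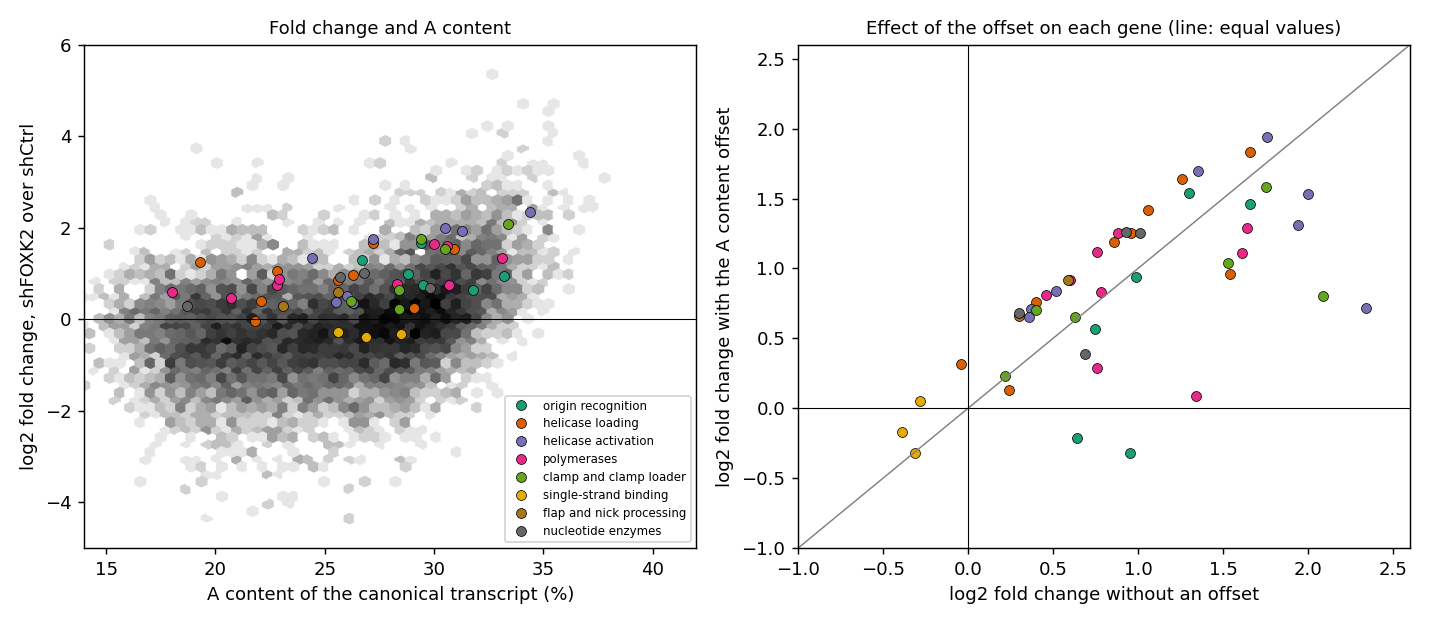
Left, log2 fold change (vertical axis) against the A content of the canonical transcript in percent (horizontal axis) for 13112 protein-coding genes (grey, darker for more genes, with 115 genes outside the axes) and the 47 genes by role (colour). Right, each of the 47 genes without (horizontal axis) and with (vertical axis) the A content offset, with a line at equal values: DBF4, RFC1 and PRIM1 lie far below the line, and ORC3 and ORC4 lie below 0 on the vertical axis.

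Other genes of the same pathways were counted from lists of known function. Of all tested genes 25.7% rose and 22.7% fell, and each count is to be read beside these shares. Of 30 other fork and origin factors, 23 rose and 2 fell, with a median log2 fold change of 1.35. ATAD5, which unloads PCNA, had 5.33 and 3.36 CPM in shCtrl and 67.7 and 99.3 in shFOXK2 (4.25, SE 0.34, adjusted p = 1.66e-06), and the checkpoint mediator CLSPN had 11.3 and 7.85 against 159 and 203 CPM (4.23, SE 0.30, adjusted p = 7.15e-07). With the offset for A content these stood at 2.41 and 3.91. CHTF8, part of an alternative clamp loader, fell from 186 and 227 to 92.2 and 71.2 CPM (-1.34, SE 0.25, adjusted p = 6.87e-04), and POLD4, the small subunit of polymerase delta, from 24.7 and 30.7 to 10.4 and 12.2 CPM (-1.29, SE 0.28, adjusted p = 0.00219). POLD4 thus fell while POLD3 of the same polymerase rose. Likewise CHTF8 fell while CHTF18 (2.40, SE 0.26, adjusted p = 1.77e-05) and DSCC1 (2.00, SE 0.28, adjusted p = 9.58e-05) of the same alternative loader rose. Of 11 genes of chromatin assembly at forks 6 rose and none fell (median 0.82), led by the partners MMS22L (2.72, SE 0.38, adjusted p = 9.11e-05) and TONSL (1.89, SE 0.28, adjusted p = 1.31e-04), which act together on damaged forks.

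Nucleotide supply beyond the 4 enzymes above held fewer calls. Of 22 genes of deoxynucleotide supply 6 rose and 3 fell, with a median of 0.29, and 6 of 22 is close to the share of all tested genes that rose. NME1, a nucleoside diphosphate kinase, rose from 51.1 and 78.7 to 206 and 213 CPM (1.69, SE 0.26, adjusted p = 2.05e-04), and DCTPP1, a pyrophosphatase of dCTP and its modified forms, rose by 1.14 (SE 0.25, adjusted p = 0.00239). SAMHD1, which breaks down deoxynucleotides, had 65.9 and 60.9 CPM in shCtrl and 16.0 and 19.9 in shFOXK2 (-1.82, SE 0.26, adjusted p = 1.25e-04). CMPK2, a mitochondrial nucleotide kinase, was low throughout, with 54 and 30 counts under shCtrl against 5 and 16 (-1.75, SE 0.49, adjusted p = 0.00920). Of 15 genes of purine synthesis 1 rose and none fell (median 0.20). It was PPAT, the first enzyme of the pathway, at 27.6 and 13.7 against 45.5 and 44.8 CPM (1.12, SE 0.32, adjusted p = 0.0105). With the offset for A content 7 of these 15 were called higher, against 28.2% of all tested genes. Of 7 genes of pyrimidine synthesis DHODH (0.70, SE 0.26, adjusted p = 0.0387) and CTPS1 (0.63, SE 0.24, adjusted p = 0.0448) rose and UCK1 fell (-0.87, SE 0.28, adjusted p = 0.0208). The share that rose, 28.6%, is close to the 25.7% of all tested genes, of which 22.7% fell. UCK1 was not called with the offset for A content (-0.53, adjusted p = 0.0502) or for GC content (-0.52, adjusted p = 0.0508). With the former 5 of the 7 were called higher and 0 lower, against 28.2% and 23.0% of all tested genes.

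The E2F, DP and RB family was mixed. Of 18 genes 7 rose and 2 fell, with a median of 0.62. E2F2, an activating member, had 6.63 and 9.16 CPM in shCtrl and 17.8 and 27.9 in shFOXK2 (1.54, SE 0.32, adjusted p = 0.00166), and LIN9 of the DREAM complex rose by 1.65 (SE 0.33, adjusted p = 0.00111), a value that was 0.02 with the offset for A content. RBL2, a pocket protein that represses these genes in quiescent cells, fell from 75.3 and 54.5 to 19.4 and 20.2 CPM (-1.71, SE 0.27, adjusted p = 2.31e-04). Of the same family, RBL1 rose (1.32, SE 0.38, adjusted p = 0.0111) and RB1 was not called (0.29, SE 0.34, adjusted p = 0.506). TFDP2, a dimer partner of E2F, fell from 56.7 and 56.4 to 16.0 and 28.2 CPM (-1.35, SE 0.30, adjusted p = 0.00222). Over all 103 genes of these lists 45 rose and 8 fell, with a median of 0.58.

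**Figure D5:**
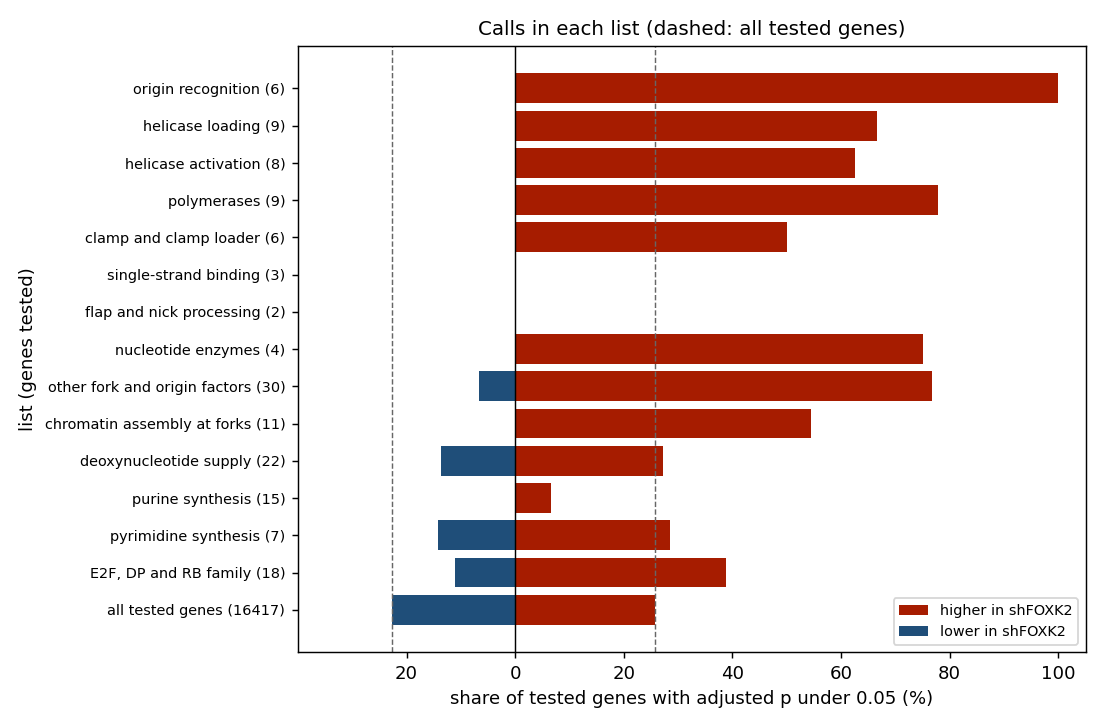
Share of the tested genes in each list that passed an adjusted p of 0.05 (horizontal axis, percent, red for higher and blue for lower in shFOXK2), with the number tested in brackets and dashed lines at the shares of all 16417 tested genes, 25.7% and 22.7%. The bars of origin recognition, polymerases and other fork and origin factors reach far past the line for higher calls, that of deoxynucleotide supply ends near it and that of purine synthesis ends short of it.

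EPCAM and keratin genes 7, 8, 18 and 19, markers of an epithelial line, had at least 1142 counts in every library and were not called, and the 8 tested epithelial markers summed to 4108 and 5474 CPM in shCtrl and 4093 and 5307 in shFOXK2. CDH1 (459, 260, 13 and 24 counts in library order), MUC16 and PAX8 fell, and WT1 had at most 2 counts. Of the leukocyte markers PTPRC and CD3E had 0 counts in shCtrl and at most 3 in shFOXK2, while CD14 fell from 17.4 and 22.3 to 8.72 and 9.23 CPM. Of the endothelial markers PECAM1 and CDH5 fell and summed to 10.3 and 7.66 against 0.633 and 1.59 CPM, and of the fibroblast markers COL1A1 alone passed the filter, at 12.6 to 15.9 CPM in all libraries. The part of these shifts in the values above was not tested. Of the 47 genes, 19 have an exon that overlaps a gene on the opposite strand and 6 (FEN1, MCM7, POLA2, POLD1, POLD3 and PRIM1) one on the same strand, and reads shared there could not be assigned with certainty.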

How the data were processed

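Polyadenylated RNA of 4 OVCAR5 libraries (shCtrl and shFOXK2, 2 each) was prepared with the NEBNext Ultra II RNA kit. Per the submitters' processing notes, reads were aligned to GRCh38 with STAR 2.5.2 and counted with HTSeq, and the deposited values are whole-number read counts for each gene symbol, 1 table a library, not normalized by the authors. The annotation and the strand setting of the counting are not given in the sources used here, so reads of overlapping genes on opposite strands cannot be told apart. Groups and replicate numbers came from the sample titles.

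Counts were filtered with filterByExpr and scaled by the trimmed mean of M values (TMM). Groups were compared with edgeR 4.0.16 (R 4.3.3), whose quasi-likelihood F test is 2-sided, p-values were adjusted by Benjamini-Hochberg across the 16417 genes that passed the filter, and the threshold was 0.05. Each adjusted p is from this fit where no other fit is mentioned. Standard errors (SE) were taken as the size of the log2 fold change over the root of F. With 2 libraries against 2 an exact permutation test cannot go below 0.333, so p-values rest on the variance shared between genes. CPM values are TMM-scaled, and values per kb use the length of the GENCODE canonical transcript (hg38), to which all 47 genes were matched. Totals per library lay between 14284005 and 21950873 counts, and 3 counts, taken as the floor, equal 0.134 to 0.211 CPM by library. Floors cover counting error only. Replicates were not copies: chi-square per gene came to 38.1 for the shCtrl pair and 27.9 for the shFOXK2 pair, well above sampling noise.

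The 47 genes, the pathway lists and the tests were chosen with earlier results of these data known. The text names all 47, FOXK2, and up to 2 largest called rises and falls of each pathway list. CHTF18, DSCC1, RBL1 and RB1 were added for contrast after their values were seen. The lists are described by counts and medians, without a test. Alternatives were the Wald test of DESeq2 1.42.0, its size factors, library size alone, no filter, at least 10 counts in every library, the edgeR exact test, the replicate number as a block, lowess offsets (span 0.2) on GC or A content, the glmTreat test against a log2 fold change of 1, and leaving out each library in turn, where the lone library is assumed to vary like the other group. A block with crossed replicate numbers was added after seeing the data. The fits were tested on simulated counts.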

Additional observations from a re-analysis of the deposited data

How the results depend on the processing

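Among the 47 genes none was called lower under any of the 16 alternatives, and the count called higher stayed between 20 and 36, except for 12 against a minimum log2 fold change of 1 (3386 genes in all, against 7940). Leaving out a library gave 20 to 27 of the 47 and 6704 to 7473 genes in all. The replicate block called 26 of the 47 and 7270 genes, 7133 of them among the 7940, and lost ORC4 (adjusted p = 0.113), POLA1 (0.0604), PRIM2 (0.0685) and RRM1 (0.0673). Across genes, same-numbered libraries did not deviate together (correlation -0.113). With 2 libraries a group this cannot decide whether the numbers mark a pairing, which the labels do not state. With crossed numbers 8350 genes and 32 of the 47 were called. DESeq2 called 28 of the 47. The counts of genes in all take both directions together. Called higher alone were 4219 of the 16417 tested genes (25.7%) without an alternative and 2056 against the minimum fold. They were 3952 with the replicate block, 4422 with crossed numbers and 3599 by DESeq2.

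The offsets moved the median of the per-gene differences from the fit without them by 0.17 (A content) and 0.13 (GC content). Correcting for A content gave role medians of 0.76 for origin recognition, 1.19 for helicase loading, 1.07 for helicase activation, 0.92 for polymerases, 0.75 for the clamp and clamp loader and 0.79 for FEN1 and LIG1, and, once the replicate block was added, 0.74, 1.19, 1.07, 0.91, 0.75 and 0.78. With the GC content offset they were 0.54 for origin recognition, 1.21 for helicase loading, 0.90 for the clamp and clamp loader and 0.80 for FEN1 and LIG1. The clamp and clamp loader median was 1.12 by library size alone, 0.98 without a filter and 1.13 with at least 10 counts in every library, and that of polymerases was 0.68 without a filter. Leaving out a library gave 1.35 to 1.58 for helicase activation, 0.80 to 1.00 for polymerases, 1.02 to 1.10 for the clamp and clamp loader and -0.49 to -0.18 for RPA.

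Signs turned for genes near 0 and for A-rich ORC genes. MCM2 was 0.01 by library size alone and with at least 10 counts, 0.31 under the GC content offset, 0.32 under the A content offset (block or no block), 0.22 without the second shCtrl library and 0.04 without the first shFOXK2 library. ORC4 was -0.20 under the GC content offset and -0.21 under that for A content, or -0.18 once the block was added. ORC3 was -0.32 and -0.30 in the latter pair, and RPA1 0.05 in both. Leaving out a library gave -0.32 to 0.62 for MCM6 and -0.07 to 0.43 for PCNA, both lowest without the second shFOXK2 library. Except for the counts against a minimum fold, the cause was not tested. Depth alone did not set the standard errors: POLE2, with 119 to 455 counts, and MCM6, with 922 to 2198, both had 0.29.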
